A study of Homo sapiens with 6 samples.

Results

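Interferon-stimulated effector genes are the genes that cells switch on when interferon binds its receptors, and most of their products block viral replication or present and tag foreign material. The set described here comprised 52 named genes: receptor chains, transcription factors, and the effector and feedback genes downstream of them. Of these, 50 were measured by at least 1 probe set that named that gene alone, out of 17534 genes measured in this way. USP18 was covered only by a probe set naming 5 genes, and STAT2 was not analysed here.

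Total RNA of MM.1R, an established human line of multiple myeloma, was hybridised to 6 Affymetrix PrimeView arrays. The 3 control samples were infected with shCtrl, a hairpin control construct, and the other 3 samples received Epirubicin Hydrochloride, an anthracycline that blocks topoisomerase II and causes DNA breaks, in order to slow growth. Since shCtrl is listed for controls only, effects of drug and construct cannot be told apart; neither dose nor duration is stated in the labels. Whether samples of 1 group were separate cultures is not stated, so p-values cover no more than the differences among these arrays, possibly technical ones.

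In the classical pathway type I interferons bind IFNAR1 and IFNAR2, and type II interferon binds IFNGR1 and IFNGR2. Receptor-bound kinases then phosphorylate STAT proteins, which for type I interferon enter the nucleus with IRF9 and bind the interferon-stimulated response element (ISRE) in target promoters. The type II signal uses another element, the gamma-activated site (GAS). In myeloma, a cancer of plasma cells, type I interferon has been used as a drug.

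The ISRE is the sequence through which most of these genes are known to be switched on, so promoter stretches that carry it are shown for members that rose and for members that did not. The core searched was GAAANNGAAA on either strand, in RefSeq windows (GRCh38.p14) from 250 bases before to 50 after each gene's start. The first listed window of a gene was used, and 41 members had one. The core was present in 24 of them (58.5%), against 3.65% of all 27305 windows. It was present in 6 of 9 windows of members called higher (66.7%) and in 18 of 31 windows of members called in neither direction (58.1%). The GAS core TTCNNNGAA was in 10 of the 41 windows (24.4%), against 7.88% of all, with 1 of 9 among members called higher and 9 of 31 among the others. In 4 members an ISRE match overlapped a GAS match. A match is a description of letters and not evidence of binding. The stretches below run 5′ to 3′ on the gene's strand and end before its start, with ISRE matches in capitals. The first 3 belong to members called higher with epirubicin and the next 4 to members that were not called.
ISG15, chr1:1013364-1013419, plus strand: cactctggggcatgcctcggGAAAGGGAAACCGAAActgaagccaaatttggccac
SOCS1, chr16:11256288-11256337, minus strand: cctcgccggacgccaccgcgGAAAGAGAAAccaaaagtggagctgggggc
PARP14, chr3:122680790-122680838, plus strand: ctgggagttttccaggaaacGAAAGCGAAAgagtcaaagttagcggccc
IFIT1, chr10:89392487-89392549, plus strand: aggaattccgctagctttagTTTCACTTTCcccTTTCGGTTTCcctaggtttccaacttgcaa
BST2, chr19:17405725-17405780, minus strand: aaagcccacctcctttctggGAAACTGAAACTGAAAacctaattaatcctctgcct
IFI27, chr14:94110608-94110670, plus strand: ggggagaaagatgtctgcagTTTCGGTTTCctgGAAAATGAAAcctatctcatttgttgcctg
ISG20, chr15:88638927-88638976, plus strand: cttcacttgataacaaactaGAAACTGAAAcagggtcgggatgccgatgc
The core was found both in members that rose and in members that were not called.

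The comparison asked which of these genes differed between epirubicin and control cells. LAMP3, DTX3L, PARP14, SOCS1, MX2, XAF1, HERC6, IFI16, MX1, GBP4 and ISG15 rose, by 1.31-fold to 3.27-fold. No member fell past the threshold. The receptors, IRF9, IRF1, all 4 IFIT genes, the IFITM genes and the OAS family were not called on probe sets naming 1 gene alone. Probe sets naming both OAS2 and OAS3 were called higher (0.74 and 0.45), so the result for these genes is open. A gene was called at an adjusted p under 0.05 (limma, Benjamini-Hochberg over all 17534 genes) and a fold of at least 1.3, the thresholds in the series' design text.

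Of the 50 measured members 11 were higher (22.0%) and 0 lower, where 4.36% of all genes were higher and 2.14% lower. At any fold, an adjusted p under 0.05 in limma was found for 24 members above 0 (48.0%) and 3 below (6.00%), against 15.6% and 13.5% of all genes. All 3 epirubicin arrays lay above all 3 control arrays in 27 members (54.0%) and below in 5 (10.0%), against 23.8% and 20.1% of all genes. The median log2 difference, epirubicin minus control, was 0.11 over the members and 0.02 over all genes. In 37 of the 50 members at least 1 group mean exceeded 5.54, the median of all values in the table. The other 13 were IFIT2, IFITM3, OAS3, OASL, MX2, RSAD2, CMPK2, GBP2, GBP4, GBP5, IFI44L, PARP9 and LGALS3BP. For these dim members a small difference does not show that the gene was unchanged. The SD within a group was 0.04 (median over members) in control arrays, with a highest value of 0.22, and 0.05 in epirubicin arrays, with a highest value of 0.19.

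**Figure D1:**
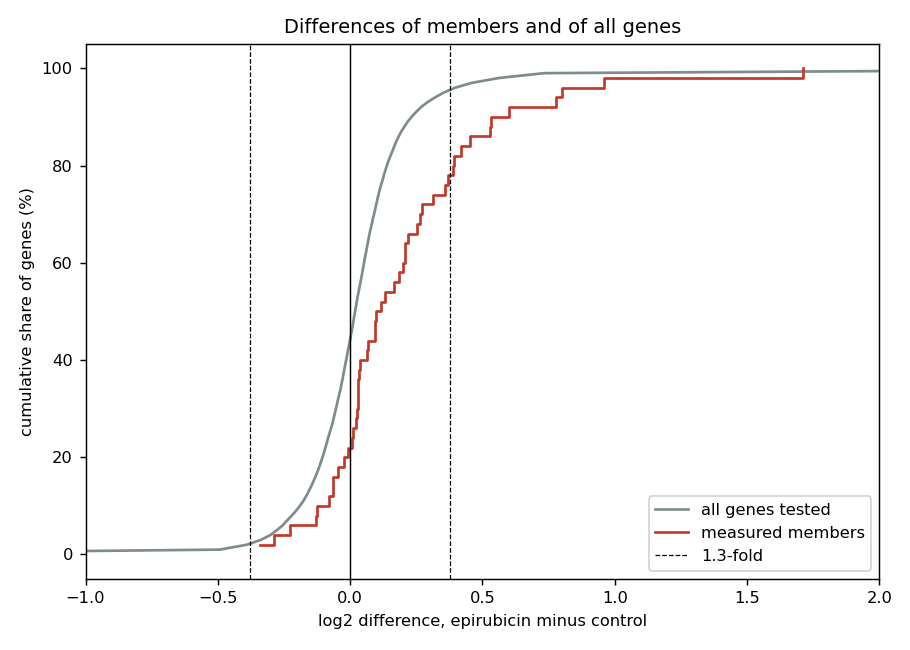
Cumulative share of genes (vertical axis, %) against the log2 difference, epirubicin minus control (horizontal axis), for the 50 measured members (steps) and for all 17534 genes (curve through their percentiles). The members' curve lies to the right of the curve of all genes over most of its range, with a median of 0.11 against 0.02, and no member lies left of the lower 1.3-fold line.

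**Figure D2:**
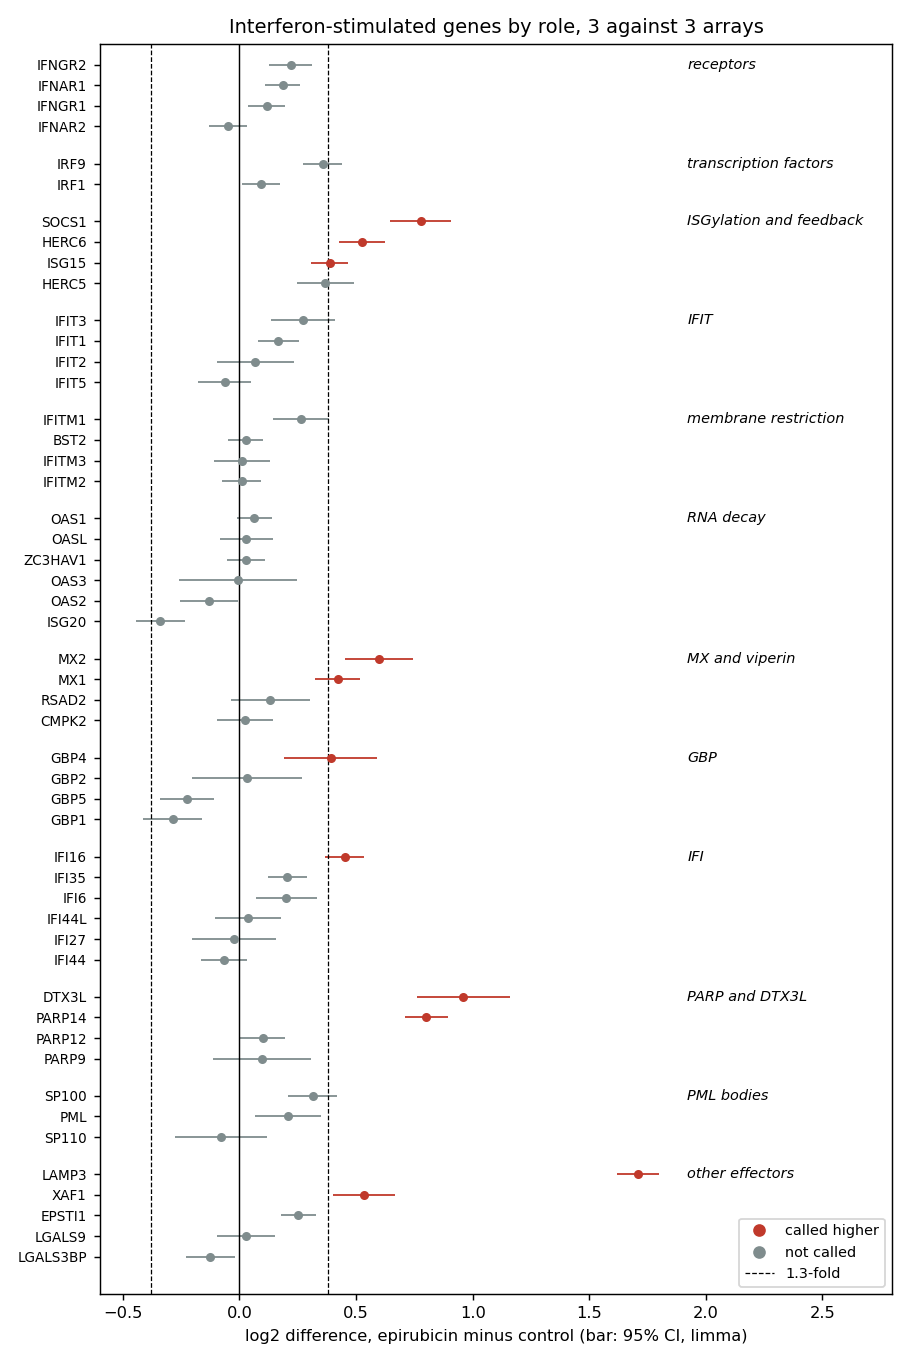
Log2 difference, epirubicin minus control, of each measured member with its 95% confidence interval from limma (3 against 3 arrays), ordered by role; red points were called higher and dashed lines mark 1.3-fold. The 11 called members are spread over 6 roles, and the IFIT, membrane restriction, RNA decay, receptor, transcription factor and PML body groups hold none. Over all genes 4.36% were higher, so holding none is no trait of groups this small.

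None of the 4 receptor chains was called, where 4.36% of all genes were higher and 2.14% lower. IFNAR1, a chain of the type I receptor, had log2 values of 9.75, 9.75 and 9.74 in control arrays and 9.92, 9.91 and 9.97 in epirubicin arrays. The groups did not overlap, but the difference was 0.18 (SE 0.03, limma adjusted p = 0.00582), a 1.14-fold difference under the fold threshold. IFNGR2 and IFNGR1, the chains of the type II receptor, differed by 0.22 and 0.12, also with adjusted p under 0.05 in limma. IFNAR2, the other type I chain, differed by -0.05 with a 95% confidence interval (CI) of -0.13 to 0.03. All 3 epirubicin arrays nevertheless lay below all 3 control arrays. Its dimmer probe sets differed by -0.16 and -0.22, with adjusted p of 0.0217 and 0.0186 in the limma fit of all probe sets. The mean of its 3 probe sets was -0.14 (limma adjusted p = 0.00808), under the fold threshold.

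Of the transcription factors, IRF9, the DNA-binding partner of the STAT proteins, lay just under the fold threshold. Its values were 7.43, 7.37 and 7.40 in control and 7.79, 7.76 and 7.72 in epirubicin arrays, a difference of 0.36 (SE 0.03, limma adjusted p = 0.000605, 1.28-fold). All 4 of its probe sets had differences above 0, and their mean was 0.25. IRF1, which is itself induced by interferon, read 8.56, 8.52 and 8.52 in control and 8.58, 8.64 and 8.65 in epirubicin arrays. That difference was 0.09 (limma adjusted p = 0.0943).

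Of the 4 measured members grouped as ISG15 conjugation and feedback 3 rose, where 4.36% of all genes were higher. The 3 were ISG15, HERC6 and the feedback gene SOCS1, and the median log2 difference of the 4 was 0.46. UBE2L6 and UBA7, which also act in ISG15 conjugation, were not members of the set. They differed by 0.19 and 0.13, with adjusted p of 0.00897 and 0.0997 in limma. In both, all 3 epirubicin arrays lay above all 3 control arrays. Neither reached the fold threshold, so the call did not extend to all conjugation genes, although their differences lay above 0. ISG15, a ubiquitin-like modifier that is attached to target proteins, rose from 6.53, 6.57 and 6.58 in control to 6.93, 6.98 and 6.94 in epirubicin arrays. This was 1.31-fold (log2 0.39, SE 0.03, limma adjusted p = 0.000379), close to the threshold: without control replicate 1 or epirubicin replicate 2 the difference was 0.37 and the call was lost. HERC6 rose 1.44-fold, from 6.07, 5.94 and 6.04 to 6.56, 6.52 and 6.54 (log2 0.53, SE 0.04, limma adjusted p = 0.00027). Its neighbour HERC5, the main human ligase for ISG15, had 9.09, 9.09 and 9.10 in control and 9.40, 9.57 and 9.41 in epirubicin arrays. The difference of 0.37 (SE 0.05) was 1.29-fold and not called, but it was called without epirubicin replicate 1 or 3, at 0.40 and 0.39.

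SOCS1, an inhibitor of the receptor-bound kinases and a feedback gene of the pathway, rose 1.71-fold. Its values were 4.88, 4.81 and 4.70 in control and 5.60, 5.61 and 5.52 in epirubicin arrays (log2 0.78, SE 0.05, limma adjusted p = 0.000171). The second SOCS1 probe set, dimmer at 4.22 in control arrays, differed by 0.27 and was not called. The probe set naming USP18, the protease that removes ISG15, together with 4 other genes read 4.25, 4.34 and 4.34 in control and 4.46, 4.72 and 4.60 in epirubicin arrays. Its difference was 0.28, under the fold threshold, and cannot be assigned to USP18.

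None of the 4 IFIT genes, whose products bind viral RNA, was called, where 4.36% of all genes were higher and 2.14% lower. IFIT5 overlapped between the groups, with 6.69, 6.68 and 6.74 in control and 6.61, 6.73 and 6.58 in epirubicin arrays. IFIT3 and IFIT1 differed by 0.27 and 0.17 with adjusted p of 0.0126 and 0.0153 in limma, and both had epirubicin arrays above all control arrays. IFIT2 was dim, at 3.34 in control arrays, and differed by 0.07 (CI -0.10 to 0.23).

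The membrane proteins that restrict virus entry or release were not called either, against 4.36% of all genes higher and 2.14% lower. BST2, or tetherin, which holds budding virus at the cell surface, had overlapping groups. It read 11.85, 11.81 and 11.83 in control and 11.84, 11.87 and 11.86 in epirubicin arrays, a difference of 0.03 (CI -0.05 to 0.10). IFITM1 differed by 0.26 (limma adjusted p = 0.00898) while IFITM2 and IFITM3 lay at 0.01 each. IFITM2 and IFITM3, close relatives, were read by probe sets of the type that Affymetrix marks as able to match other transcripts. Their separate values are therefore uncertain. Probe sets of that type also gave the values of IFNAR1, IFNAR2, IFIT3, OASL, GBP1, PML and LGALS9. The largest XAF1 difference (1.44) came from such a probe set as well. Another type, marked as shared by several transcripts, gave the values of the called members ISG15, IFI16, PARP14 and DTX3L. It also gave those of GBP2, IFI27, IFI35, PARP12 and LGALS3BP.

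The RNA decay group held ISG20, ZC3HAV1, OASL and OAS1 to OAS3, not all of which degrade RNA themselves. On probe sets naming 1 gene alone, 0 of the 6 were called, where 4.36% of all genes were higher and 2.14% lower. ISG20, an exonuclease, was the member with the lowest difference. Its values were 9.74, 9.73 and 9.80 in control and 9.34, 9.46 and 9.44 in epirubicin arrays, with no overlap, a difference of -0.34 (SE 0.04, limma adjusted p = 0.00174), 1.27-fold toward control and under the fold threshold. OAS1, OASL and the zinc finger antiviral protein gene ZC3HAV1 lay at 0.06, 0.03 and 0.03. OAS1 to OAS3 encode synthetases whose product activates RNase L, and OAS2 and OAS3 differed by -0.13 (limma adjusted p = 0.117) and -0.008 (adjusted p = 0.965) on their own probe sets.

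For OAS2 and OAS3 the answer depended on the probe set. A probe set naming both genes had 6.78, 6.81 and 6.85 in control and 7.58, 7.54 and 7.56 in epirubicin arrays. It was called higher in the fit of all probe sets (log2 0.74, SE 0.04, limma adjusted p = 6.22e-05), as was a dimmer one naming both (0.45). None of the 5 probe sets naming OAS2 alone was called, with differences from -0.19 to 0.04. OAS3 alone was read by 1 dim probe set, at 4.43, 4.12 and 3.999 in control and 4.13, 4.23 and 4.17 in epirubicin arrays. Which of the genes the shared probe sets reported was not tested.

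Both MX genes rose. They encode dynamin-like GTPases that trap viral nucleocapsids, and they lie beside each other among protein-coding genes in the RefSeq order. MX1 went from 6.71, 6.80 and 6.73 to 7.14, 7.14 and 7.21 (1.34-fold, log2 0.42, SE 0.04, limma adjusted p = 0.000582). MX2 went from 4.48, 4.51 and 4.31 to 5.02, 4.99 and 5.09 (1.51-fold, log2 0.60, SE 0.06, limma adjusted p = 0.000735). Both MX2 probe sets were called. All 3 epirubicin arrays were above all control arrays in both genes.

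RSAD2, which encodes viperin, and its neighbour CMPK2, a mitochondrial nucleotide kinase, were not called, at 0.13 and 0.02. RSAD2 was dim, at 3.03 in control arrays. The mean of its 2 probe sets was 0.20 (limma adjusted p = 0.0112), under the fold threshold. The brightest CMPK2 probe set had 4.93, 4.97 and 5.06 in control and 4.99, 4.95 and 5.08 in epirubicin arrays. Another CMPK2 probe set, the dimmest of 3, had 3.33, 3.46 and 3.45 against 4.01, 4.06 and 4.10 and was called in the fit of all probe sets (log2 0.64, SE 0.05). The 3 probe sets therefore did not give 1 answer for CMPK2, and their mean of 0.21 was not called.

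The guanylate-binding proteins, GTPases induced mainly by type II interferon, did not move in 1 direction. GBP1 had 6.39, 6.58 and 6.48 in control and 6.17, 6.21 and 6.22 in epirubicin arrays, a difference of -0.29 (SE 0.05, limma adjusted p = 0.00736) under the fold threshold. GBP5, at the bottom of the range at 2.83 in control arrays, differed by -0.23, and GBP2 by 0.03. GBP4 rose 1.31-fold, from 4.29, 4.12 and 4.24 to 4.61, 4.46 and 4.75 (log2 0.39, SE 0.08, limma adjusted p = 0.0135). Only 1 of its 5 probe sets was called and their mean was 0.15. The call was lost without control replicate 2 (0.34) or epirubicin replicate 3 (0.32), and GBP4 lay under the median of the table.

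Of the genes named IFI, 1 of 6 rose, where 4.36% of all genes were higher. IFI16, a nuclear DNA sensor, went from 10.37, 10.31 and 10.34 to 10.77, 10.83 and 10.78 (1.37-fold, log2 0.45, SE 0.03, limma adjusted p = 0.000245). All 3 of its probe sets were called, at 0.41 to 0.49. IFI35 and IFI6, a mitochondrial inhibitor of apoptosis, differed by 0.21 and 0.20, with adjusted p of 0.00577 and 0.0318 in limma. IFI44, IFI44L and IFI27, which are commonly read as marks of a type I interferon response, lay at -0.07, 0.04 and -0.02 on the probe sets with the highest signal, with overlapping groups. The second IFI27 probe set read 4.61, 4.64 and 4.45 in control and 4.94, 4.92 and 4.85 in epirubicin arrays, with no overlap. Its difference of 0.34 (limma adjusted p = 0.00815 over all probe sets) was under the fold threshold, as was that of 1 of the 6 IFI44 probe sets, at 0.33 (adjusted p = 0.0443). The other IFI44 and the IFI44L probe sets lay between -0.15 and 0.08. IFI44L was dim, at 4.08 in control arrays on its brightest probe set.

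PARP14 and DTX3L rose. PARP14, an ADP-ribosyltransferase, went from 7.52, 7.60 and 7.62 to 8.41, 8.37 and 8.36 (1.74-fold, log2 0.80, SE 0.04, limma adjusted p = 4.67e-05), and 4 of its 6 probe sets were called, with a mean over all 6 of 0.51. DTX3L, a ubiquitin ligase that works in a complex with PARP9 and is recruited to DNA breaks, went from 6.22, 6.18 and 6.22 to 6.99, 7.33 and 7.18 (1.95-fold, log2 0.96, SE 0.08, limma adjusted p = 0.000412). The epirubicin arrays of DTX3L varied more than the control arrays, with SDs of 0.17 and 0.02, and 2 of its 3 probe sets were called, with a mean over all 3 of 0.66. In the RefSeq order DTX3L lies beside PARP9 and has 1 protein-coding gene between it and PARP14. PARP12 differed by 0.10.

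PARP9 was not called on its brightest probe set, which had 5.19, 5.30 and 5.19 in control and 5.39, 5.13 and 5.46 in epirubicin arrays. The other 2 PARP9 probe sets were called in the fit of all probe sets. The one with a control mean of 4.49 rose from 4.48, 4.61 and 4.36 to 5.61, 5.61 and 5.44, a 2.09-fold difference (log2 1.07, SE 0.08, limma adjusted p = 0.000247), and in epirubicin arrays it was brighter than the one used. The mean of the 3 was called, at 0.58.

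**Figure D3:**
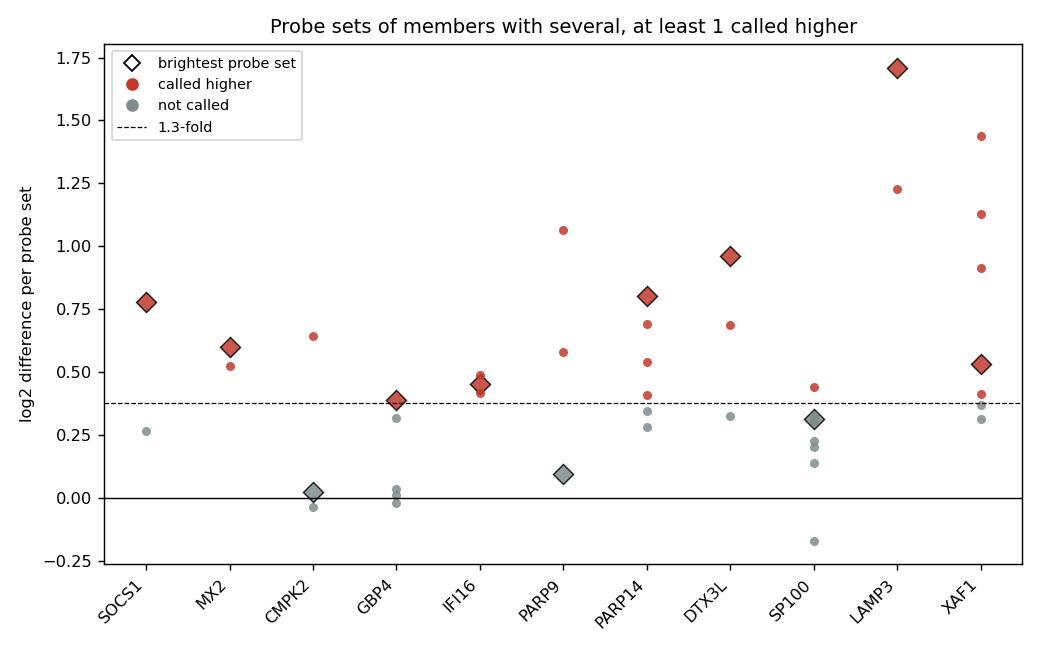
Log2 difference, epirubicin minus control, of every probe set naming the gene alone, for the 11 members that have more than 1 such probe set and at least 1 called higher; diamonds mark the brightest probe set, which gave the gene's value. IFI16, LAMP3 and MX2 were called on all their probe sets, while for CMPK2, PARP9 and SP100 the brightest was not called but another was.

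The nuclear body genes had small differences. SP100 had 7.09, 6.97 and 7.08 in control and 7.36, 7.39 and 7.33 in epirubicin arrays (log2 0.31, SE 0.04, limma adjusted p = 0.00246), a 1.24-fold difference under the threshold. Of its 9 probe sets 1 was called, at 0.44. PML, the scaffold of the bodies, differed by 0.21 (limma adjusted p = 0.0412), with 0 of 10 probe sets called. SP110 differed by -0.08 with overlapping groups.

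Among the remaining effectors LAMP3 and XAF1 rose. LAMP3, a lysosomal membrane protein, had the largest difference of all members, both on the probe set with the highest signal and as a mean of probe sets (1.47), and on the former it ranked 18 of 17534 genes by log2 difference. It had 7.64, 7.72 and 7.67 in control and 9.34, 9.42 and 9.40 in epirubicin arrays (3.27-fold, log2 1.71, SE 0.04, limma adjusted p = 2.88e-06), and both its probe sets were called. DTX3L, the next member on that measure, ranked 100 of 17534, while by the mean of probe sets XAF1 was next.

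XAF1, an antagonist of the apoptosis inhibitor XIAP, went from 5.94, 5.90 and 5.91 to 6.33, 6.50 and 6.52 (1.45-fold, log2 0.53, SE 0.06, limma adjusted p = 0.000821). It was called on 5 of 7 probe sets, 3 of them with larger differences than the brightest, up to 1.44, and the mean of all was 0.73. EPSTI1 differed by 0.25 (limma adjusted p = 0.00146), LGALS9, a galectin, by 0.03 and LGALS3BP, a secreted galectin ligand, by -0.13.

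**Figure D4:**
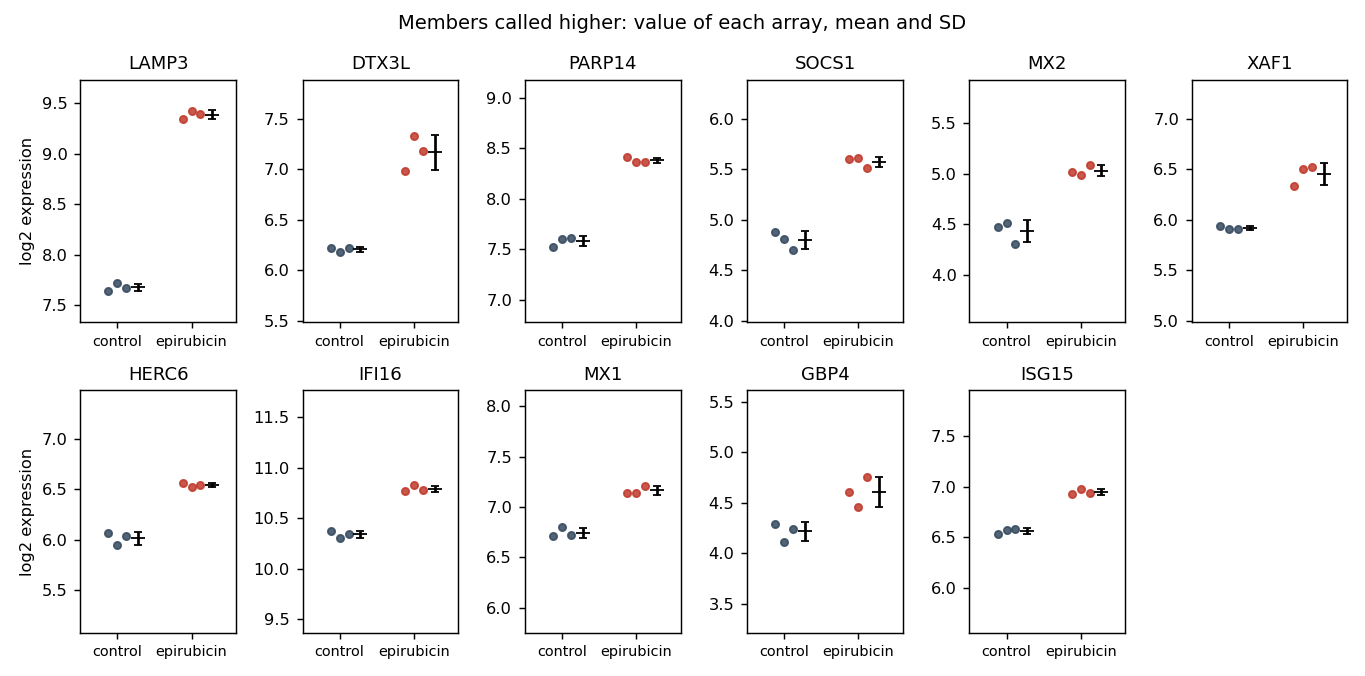
Log2 expression on each array for the 11 members called higher, with control points on the left and epirubicin points on the right of each panel and the mean and SD of 3 arrays beside them; every panel spans 2.4 log2 units. In each panel the 3 epirubicin arrays lie above the 3 control arrays, from LAMP3 (7.68 to 9.39) to ISG15 (6.56 to 6.95).

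Over all probe sets that named a member alone, 27 of 143 were called higher (18.9%) and 0 lower, against 3.65% and 2.62% of all 47481 probe sets. Probe sets of 1 gene share its transcripts and are not replicates. Of the 35 members with more than 1 probe set, 3 had all called higher and 8 had some called.

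Genes of the same pathway that are not in the set gave these counts. Of 17 interferon genes measured, 0 were called, where 4.36% of all genes were higher and 2.14% lower. All 17 had group means below the median of the table, so the count of 0 cannot show that interferon genes were unchanged. IFNE differed by 0.20 (limma adjusted p = 0.0224), with all 3 epirubicin arrays above all 3 control arrays, under the fold threshold. IFNA6 differed by 0.21 (limma adjusted p = 0.0564), also with all 3 epirubicin arrays above the controls. IFNB1, the type I interferon that most cells can make, had means of 2.70 and 2.85 in control and epirubicin arrays. IFNG, the type II interferon, had means of 4.08 and 4.20. Without detection calls a dim probe set cannot be told from background.

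Of 37 other receptor, kinase, STAT, IRF and inhibitor genes, 5 were higher (13.5%) and 1 lower (2.70%), against 4.36% and 2.14% of all genes. The higher ones were STAT4 (0.84), IRF7 (0.66), a factor that amplifies type I interferon production, STAT3 (0.55), STAT6 (0.54) and IL10RB (0.42), a chain of the type III interferon and interleukin-10 receptors. The lower one was IRF4 (-0.49), a plasma cell transcription factor, and the lower share was near that of all genes. STAT3, STAT6 and IL10RB were called on part of their probe sets, 2 of 3, 1 of 4 and 1 of 2.

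Of 88 further interferon-induced genes, 12 were higher (13.6%) and 2 lower (2.27%), against 4.36% and 2.14% of all genes. On the probe set with the highest signal, the 6 with the largest differences were the chemokine genes CXCL10 (1.53) and CCL5 (0.68), TMEM140 (0.76), the peptide transporter gene TAP1 (0.64), NMI (0.60), which binds IFI35, and TRIM14 (-0.57), which was lower on 1 of 4 probe sets and not called as their mean (-0.30). The order depended on the probe set: TRIM22, a ubiquitin ligase gene, differed by 0.42 on that measure but was called on 6 of 6 probe sets, with a mean of 1.53. The other lower gene was PNPT1 (-0.42), and the lower share was near that of all genes. PNPT1 and TRIM22 were named after their values were seen.

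The cell type was checked on markers. Plasma cell markers had high signals, such as TNFRSF17 at 12.35 and JCHAIN at 13.27 in control arrays, although CD38 lay at 6.42 and CD27 at 4.13, and CD38 (-1.18) and IRF4 were lower with epirubicin. Of 9 myeloid markers 2 were higher with epirubicin, CD68 (0.63) and S100A9 (0.53), where 4.36% of all genes were higher. CD68 was not dim, at 6.87 in control and 7.497 in epirubicin arrays. Of the 9 it alone had a group mean above 5.54, the median of the table. S100A9 lay at 4.99 in control and 5.52 in epirubicin arrays. CD14 and LYZ were dim, at 2.79 and 2.39 in control and 2.94 and 2.52 in epirubicin arrays. The mean over the 9 was at most 4.01 in control arrays and ran from 4.17 to 4.24 in epirubicin arrays. Of 6 markers of plasmacytoid dendritic cells and 9 of T and NK cells 0 were called. Over all genes 4.36% were higher and 2.14% lower. The array means of these markers, in that order, ran from 4.46 to 4.52 and from 4.75 to 4.80 in control arrays. In epirubicin arrays they ran from 4.55 to 4.64 and from 4.79 to 4.89. The part of these other cell types in the results above was not tested.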

How the data were processed

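The authors deposited log2 expression values for 47481 probe sets on each array, with none missing; that the scale is log2 was inferred from their range (1.41 to 13.73). The affy package is the only tool in the submitters' processing notes; how background, normalization and probe summary were handled is not stated there. The medians of the 6 arrays ran from 5.52 to 5.57. A normalization before deposit would remove any change in total RNA per cell, and fewer cells and less RNA per cell cannot be told apart.

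Gene names came from the platform annotation (43976 name 1 gene, 1558 several, 1947 none), with symbols updated by Entrez number against RefSeq (GRCh38.p14), where 43954 matched. Each gene took the probe set, among those naming it alone, with the highest mean over 6 arrays. Groups came from the sample titles. limma 3.58.1 in R 4.3.3 (lmFit, eBayes, no covariate) was fitted to all 17534 genes and separately to all probe sets, with Benjamini-Hochberg adjustment, and tested on simulated data. Correlations between arrays were 0.998213 to 0.99847 within groups and 0.994496 to 0.994729 between them, over probe sets.

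The members, lists and tests were chosen with earlier results of these data known. Per-array values are given for every called member, for members whose probe sets disagreed and for the brightest member of each role, and other members by their difference; a few further probe sets were shown after their values were seen. Alternatives covered the choice of probe set, normalization, a filter on dim genes, the variance model, the threshold, the replicate number as a block and leaving out each array. Scanner files were not used here. Precision is limited by the number of arrays.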

Additional observations from a re-analysis of the deposited data

How the results depend on the processing

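The number of members called higher was 11, and 9 to 12 under the alternatives that kept the 1.3-fold threshold on the estimate. With limma's treat, which tests against 1.3-fold itself, 4 members remained (LAMP3, DTX3L, PARP14 and SOCS1), 4 had an adjusted p under 0.05, and 2 other signalling genes and 5 further interferon-induced genes were called. At a fold of at least 1.5 the counts were 5, 2 and 5. Over all 17534 genes, 765 were higher in the main fit, 272 with treat and 320 at a fold of at least 1.5. In no alternative was a member called lower.

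GBP4 and ISG15 were lost after array medians were subtracted (0.36 for both), and GBP4 and MX2 were not tested when dim genes were left out. That filter kept genes whose higher group mean was above the table median, and SOCS1 passed it through its epirubicin mean alone (4.80 in control, 5.58 in epirubicin arrays), so its call there is no sign of stability. GBP4 was also lost as a mean of probe sets (0.15) and after quantile normalization, which added HERC5 (0.40). The mean of probe sets added PARP9 (0.58). When probe sets naming several genes were included, OAS3 took a probe set shared with OAS2 and went from -0.008 to 0.74, called higher.

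Same-numbered arrays did not deviate together (correlations of -0.03, 0.02 and 0.001), so the numbers were not taken as pairs. With the replicate block 11 members were called higher, the same genes. Leaving out each array in turn gave 10 to 12.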
